A study of Mus musculus with 12 samples.

Results

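The genes described here are the 10 ligands and receptors of the VEGF and angiopoietin families whose symbols were looked up in the deposited count table: the receptors Kdr, Flt1, Flt4, Tek and Tie1, and the ligands Vegfa, Vegfb, Vegfc, Angpt1 and Angpt2. They are 10 of the 56748 genes listed, and all 10 had enough counts to be tested, among 16947 tested genes. Their levels were measured by bulk RNA sequencing of kidneys from C57bl/6-wt mice, all of which had received cisplatin, a platinum drug toxic to tubule cells. In pFUS_UC the mice had also received pulsed focused ultrasound (pFUS) and primary mesenchymal stem cells (MSC) from umbilical cord; in UC they had received cisplatin and these cells; in AKI (acute kidney injury) cisplatin alone. Each group held 4 samples. The stated aim of the study was to find the pathways by which ultrasound and cells together act on the injured kidney. Cell dose and species, ultrasound setting, time of sampling, age and sex are not stated, and the labels used here name neither an uninjured group nor one with ultrasound alone. Nothing in the labels says that samples of a group were separate animals, so the p-values measure the spread between these samples, which may be technical in part.

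VEGFA is secreted in the kidney above all by podocytes and tubule cells, and VEGF ligands act on receptor tyrosine kinases of endothelial cells. KDR (VEGF receptor 2) carries most of the growth and permeability signal of VEGFA, FLT1 (VEGF receptor 1) binds VEGFA and VEGFB tightly and acts in part as a trap, and FLT4 (VEGF receptor 3) binds VEGFC and is best known from lymphatic vessels. TEK (Tie2) is the angiopoietin receptor: ANGPT1, made by mural and mesangial cells, keeps vessels quiet, ANGPT2, made by activated endothelium, can oppose it, and TIE1 is a partner of TEK that binds angiopoietins poorly by itself.

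Each pFUS_UC library held 18.5 to 25.2 M (mega) counts, each UC library 18.4 to 21.3 M and each AKI library 17.3 to 23.5 M, and the lowest count of any of the 10 genes in a sample was 28 (Flt4 in UC replicate 2). The tissue label was borne out by kidney markers in all 12 samples, with uromodulin (Umod) at 422 to 4210 CPM (counts scaled to 1 M per library) and the phosphate transporter Slc34a1 at 2920 to 6710 CPM. The libraries differed between groups beyond the genes studied here: mitochondrially encoded genes took 7.18 to 14.99% of counts in pFUS_UC, 8.33 to 18.2% in UC and 2.81 to 6.95% in AKI. The rank correlation between a library's gene levels, set against the mean of all libraries, and gene length was -0.24 to 0.01 in pFUS_UC, -0.21 to -0.13 in UC and 0.16 to 0.38 in AKI. The MSC libraries carry sample codes of one series (K) and the AKI libraries codes of another (KR), so a difference that follows these codes cannot be told apart from one of AKI.

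The promoters of 3 receptors that were lower in both MSC groups are shown so that their upstream sequence can be seen beside their levels. RefSeq promoter windows (build GRCm38.p6) were matched by symbol for 8 of the 10 genes. The stretches below hold up to 250 bases before the annotated start, written 5′ to 3′ on the gene's own strand, without bases that fall in a GENCODE exon. Capitals mark every match, on either strand, to CCGGAA or AGGAAG (cores bound by ETS factors), ACGTG (the core of hypoxia-response elements) or GGGCGG (the GC box).
Kdr, chr5:75978459-75978705, minus strand: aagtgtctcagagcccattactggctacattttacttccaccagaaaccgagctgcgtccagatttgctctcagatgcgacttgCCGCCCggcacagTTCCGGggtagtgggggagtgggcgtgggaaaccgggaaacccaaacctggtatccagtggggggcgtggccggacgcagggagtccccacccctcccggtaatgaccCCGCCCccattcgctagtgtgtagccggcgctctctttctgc
Flt1, chr5:147726012-147726261, minus strand: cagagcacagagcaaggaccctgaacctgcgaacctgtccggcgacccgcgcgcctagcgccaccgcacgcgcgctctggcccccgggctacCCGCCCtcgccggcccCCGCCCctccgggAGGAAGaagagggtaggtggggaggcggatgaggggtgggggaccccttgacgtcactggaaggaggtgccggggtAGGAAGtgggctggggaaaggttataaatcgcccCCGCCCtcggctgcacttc
Tek, chr4:94739039-94739288, plus strand: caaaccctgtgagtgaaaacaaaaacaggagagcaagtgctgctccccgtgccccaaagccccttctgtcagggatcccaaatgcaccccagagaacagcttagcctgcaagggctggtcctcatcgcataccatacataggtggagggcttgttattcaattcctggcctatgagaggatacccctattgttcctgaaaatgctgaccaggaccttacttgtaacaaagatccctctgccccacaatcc
The Kdr stretch held 1 CCGGAA and 2 GGGCGG matches, the Flt1 stretch 2 AGGAAG and 3 GGGCGG matches, and the Tek stretch none of the 4 motifs. ACGTG was in none of the 3. Of 32851 promoter windows of 250 bases in the same table, 12% held CCGGAA, 29.5% AGGAAG, 16.6% ACGTG and 32.7% GGGCGG, so such matches are common, and a match describes letters and not a bound site.

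In the count table (build GRCm39) Kdr lies on chromosome 5 from 76093487 to 76139118 and Flt1 on the same chromosome from 147498414 to 147662821, both on the minus strand. Tek lies on chromosome 4 from 94627526 to 94763213 on the plus strand, and Vegfa on chromosome 17 from 46327919 to 46343295 on the minus strand. All 10 genes are listed as protein coding. Values are sums over a whole gene, so a splice form such as the soluble form of FLT1 was not measured apart.

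Per unit of gene length, the VEGF ligands Vegfb and Vegfa stood first in all 3 groups. In the deposited FPKM values (fragments per kilobase of gene and per M fragments), Vegfb averaged 79.4 ± 7.66 in pFUS_UC, 68.0 ± 10.3 in UC and 58.8 ± 12.4 in AKI (SD, n = 4 each). Vegfa averaged 54.5 ± 4.86 FPKM in pFUS_UC, 51.7 ± 10.8 in UC and 38.3 ± 6.39 in AKI. What changed was the order below these. In both MSC groups the third place was held by Angpt2, at 8.11 ± 2.88 FPKM in pFUS_UC and 6.05 ± 2.73 in UC, followed by Tie1, Tek and Flt1. In AKI the third to sixth places were held by Tie1 (12.6 ± 3.01 FPKM), Tek (12.3 ± 2.47), Kdr (9.99 ± 2.47) and Flt1 (6.94 ± 1.61), ahead of Angpt2 at 4.63 ± 1.54. Kdr averaged 1.66 ± 0.33 FPKM in pFUS_UC and 0.94 ± 0.37 in UC, which was the seventh place in pFUS_UC and the ninth in UC. Flt4 was the last in both MSC groups, at 0.74 ± 0.17 FPKM in pFUS_UC and 0.47 ± 0.28 in UC. Neighbours in these orders mostly lay within their spread: Tie1 and Tek in AKI, and Flt1, Angpt1, Vegfc and Kdr in UC, had means closer than their SDs.

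**Figure D1:**
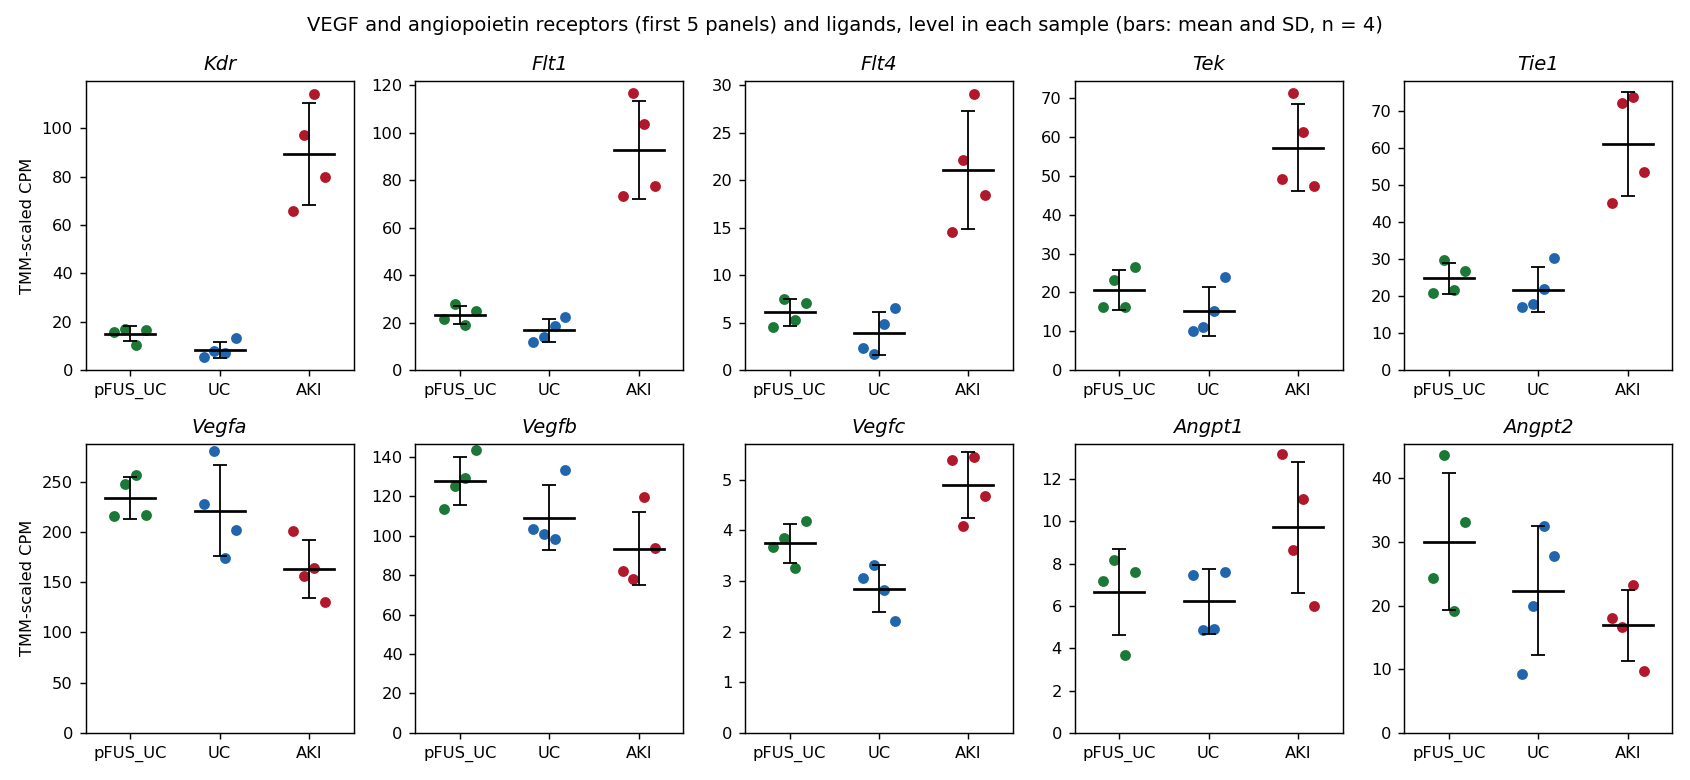
Level of each of the 10 genes in every sample, in TMM-scaled CPM (vertical axes start at 0), for pFUS_UC, UC and AKI; points are samples, the horizontal line is the mean and the bar the SD of 4 samples. All 5 receptors are lower in each pFUS_UC and UC sample than in any AKI sample (Kdr 10.6 to 17.2, 5.61 to 13.3 and 65.7 to 114 CPM), while the ligands differ less and mostly overlap.

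All 5 receptors fell in the MSC groups against AKI, and Kdr fell most. Levels between groups were compared in CPM scaled by edgeR's TMM method, and log2 fold changes were tested with edgeR's quasi-likelihood F-test, with Benjamini-Hochberg adjustment over the 16947 genes and a threshold of 0.05. Of the 10 genes, 7 were called in pFUS_UC against AKI (5 lower, 2 higher) and 7 in UC against AKI (6 lower, 1 higher). Across all tested genes, 44.0% were called in pFUS_UC against AKI (22.1% lower, 21.9% higher) and 48.4% in UC against AKI (24.3% lower, 24.1% higher), so calls as such were common. The groups did not overlap for 6 of the 10 genes in each of these comparisons, against 40.8% of all genes in pFUS_UC against AKI and 41.7% in UC against AKI. The median log2 fold change of the 10 genes was -0.93 in pFUS_UC against AKI and -1.14 in UC against AKI, and that of all tested genes 0.02 and 0.03 in the same comparisons. Both comparisons use the same 4 AKI samples, so their likeness is not independent evidence.

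Kdr, the main signalling receptor for VEGFA, had 15.8, 17.2, 10.6 and 16.6 CPM in pFUS_UC, 5.61, 7.86, 7.04 and 13.3 CPM in UC, and 65.7, 97.4, 114 and 79.9 CPM in AKI. Every MSC sample was far below every AKI sample. Kdr was 5.93-fold lower in pFUS_UC than in AKI (log2 fold change -2.57, SE 0.26, edgeR adjusted p = 5.5e-05) and 10.5-fold lower in UC than in AKI (log2 fold change -3.40, SE 0.27, edgeR adjusted p = 1.57e-05).

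Flt1, the second VEGFA receptor and the receptor of VEGFB, had 21.4, 27.8, 19.2 and 24.8 CPM in pFUS_UC, 11.8, 14.0, 18.7 and 22.5 CPM in UC, and 73.5, 117, 104 and 77.4 CPM in AKI. Here too no MSC sample reached an AKI sample. Flt1 was 3.98-fold lower in pFUS_UC than in AKI (log2 fold change -1.99, SE 0.21, edgeR adjusted p = 5.86e-05) and 5.52-fold lower in UC than in AKI (log2 fold change -2.46, SE 0.21, edgeR adjusted p = 2.34e-05).

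Flt4, the VEGFC receptor, was the least abundant receptor, with 4.54, 7.50, 5.31 and 7.09 CPM in pFUS_UC, 2.30, 1.72, 4.89 and 6.59 CPM in UC, and 14.5, 22.1, 29.05 and 18.5 CPM in AKI. The MSC samples stayed below the AKI samples, with UC replicates 1 and 2 the lowest. Flt4 was 3.45-fold lower in pFUS_UC than in AKI (log2 fold change -1.79, SE 0.36, edgeR adjusted p = 0.00154) and 5.36-fold lower in UC than in AKI (log2 fold change -2.42, SE 0.37, edgeR adjusted p = 0.000204).

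The angiopoietin receptor Tek had 16.3, 23.2, 16.2 and 26.6 CPM in pFUS_UC, 10.03, 11.2, 15.3 and 23.96 CPM in UC, and 49.2, 71.3, 61.3 and 47.4 CPM in AKI. Its partner Tie1 had 21.02, 29.9, 21.8 and 26.8 CPM in pFUS_UC, 17.01, 17.99, 21.97 and 30.3 CPM in UC, and 45.3, 72.2, 73.8 and 53.7 CPM in AKI. Both fell without overlap, by less than the VEGF receptors. Tek was 2.79-fold lower in pFUS_UC than in AKI (log2 fold change -1.48, SE 0.26, edgeR adjusted p = 0.000681) and 3.78-fold lower in UC than in AKI (-1.92, SE 0.26, edgeR adjusted p = 0.000108). Tie1 was 2.46-fold lower in pFUS_UC than in AKI (log2 fold change -1.30, SE 0.20, edgeR adjusted p = 0.000367) and 2.80-fold lower in UC than in AKI (-1.49, SE 0.21, edgeR adjusted p = 0.00012). In bulk tissue, fewer endothelial cells and less receptor RNA per cell cannot be told apart.

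Vegfa, the ligand of KDR and FLT1, was higher in the MSC groups. It had 216, 248, 257 and 217 CPM in pFUS_UC, 228, 280, 174 and 202 CPM in UC, and 201, 156, 164 and 131 CPM in AKI. The pFUS_UC samples all lay above the AKI samples, whereas UC replicate 3 lay below AKI replicate 1. Vegfa was 0.52 higher on the log2 scale in pFUS_UC than in AKI (SE 0.16, edgeR adjusted p = 0.0166) and 0.44 higher in UC than in AKI (SE 0.16, edgeR adjusted p = 0.0336). The call against AKI was lost in pFUS_UC without AKI replicate 4 (log2 fold change 0.43, edgeR adjusted p = 0.057). In UC it was lost when AKI replicate 2, 3 or 4 or UC replicate 1 or 2 was left out, without any filter on low counts and in a fit of only these groups (edgeR adjusted p from 0.0564 to 0.121), and without UC replicates 1 and 2 together (0.20, edgeR adjusted p = 0.369).

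Vegfb, a ligand of FLT1, had 113, 125, 129 and 143 CPM in pFUS_UC, 104, 101, 98.2 and 133 CPM in UC, and 82.3, 78.1, 120 and 93.6 CPM in AKI. AKI replicate 3 reached into the range of both MSC groups. The log2 fold change was 0.45 in pFUS_UC against AKI (SE 0.14, edgeR adjusted p = 0.0228) and 0.22 in UC against AKI (SE 0.14, edgeR adjusted p = 0.222). In UC it was 0.36 and passed without AKI replicate 3 (edgeR adjusted p = 0.0418), and it was -0.07 with an offset for gene length (edgeR adjusted p = 0.71). The call in pFUS_UC was lost when 1 of AKI replicates 1, 2 and 4 or pFUS_UC replicate 4 was left out (edgeR adjusted p from 0.0525 to 0.0775) and with an offset for gene length (log2 fold change 0.15, edgeR adjusted p = 0.41).

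Vegfc, the ligand of FLT4, was low in all samples, with 3.68, 3.86, 3.25 and 4.18 CPM in pFUS_UC, 3.05, 3.32, 2.82 and 2.21 CPM in UC, and 5.39, 4.08, 5.44 and 4.67 CPM in AKI. It fell in UC, where all 4 samples lay below AKI (log2 fold change -0.78, SE 0.20, edgeR adjusted p = 0.00544). In pFUS_UC its log2 fold change against AKI was -0.39 (SE 0.19, edgeR adjusted p = 0.119), with overlap, and it passed with an offset for gene length and GC content (-0.65, edgeR adjusted p = 0.0149).

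The angiopoietins themselves did not pass the threshold in either comparison with AKI. Angpt1, the TEK agonist, had 7.18, 8.16, 3.68 and 7.58 CPM in pFUS_UC, 7.48, 4.85, 4.93 and 7.60 CPM in UC, and 13.2, 8.65, 11.1 and 6.01 CPM in AKI. Angpt2, the context-dependent antagonist, had 24.3, 43.7, 19.2 and 33.1 CPM in pFUS_UC, 9.22, 19.9, 32.5 and 27.8 CPM in UC, and 18.04, 16.7, 23.2 and 9.73 CPM in AKI. Their signs differed: the log2 fold change of Angpt1 was -0.55 in pFUS_UC and -0.65 in UC against AKI (SE 0.29 each, edgeR adjusted p = 0.133 and 0.0787), and that of Angpt2 was 0.82 in pFUS_UC and 0.40 in UC against AKI (SE 0.36 each, edgeR adjusted p = 0.0761 and 0.368). Some alternatives moved them past the threshold: DESeq2 called Angpt2 higher in pFUS_UC (adjusted p = 0.0449), and edgeR with an offset for gene length and GC content called Angpt1 lower in pFUS_UC (-0.93, adjusted p = 0.0174) and in UC (-1.004, adjusted p = 0.00996).

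**Figure D2:**
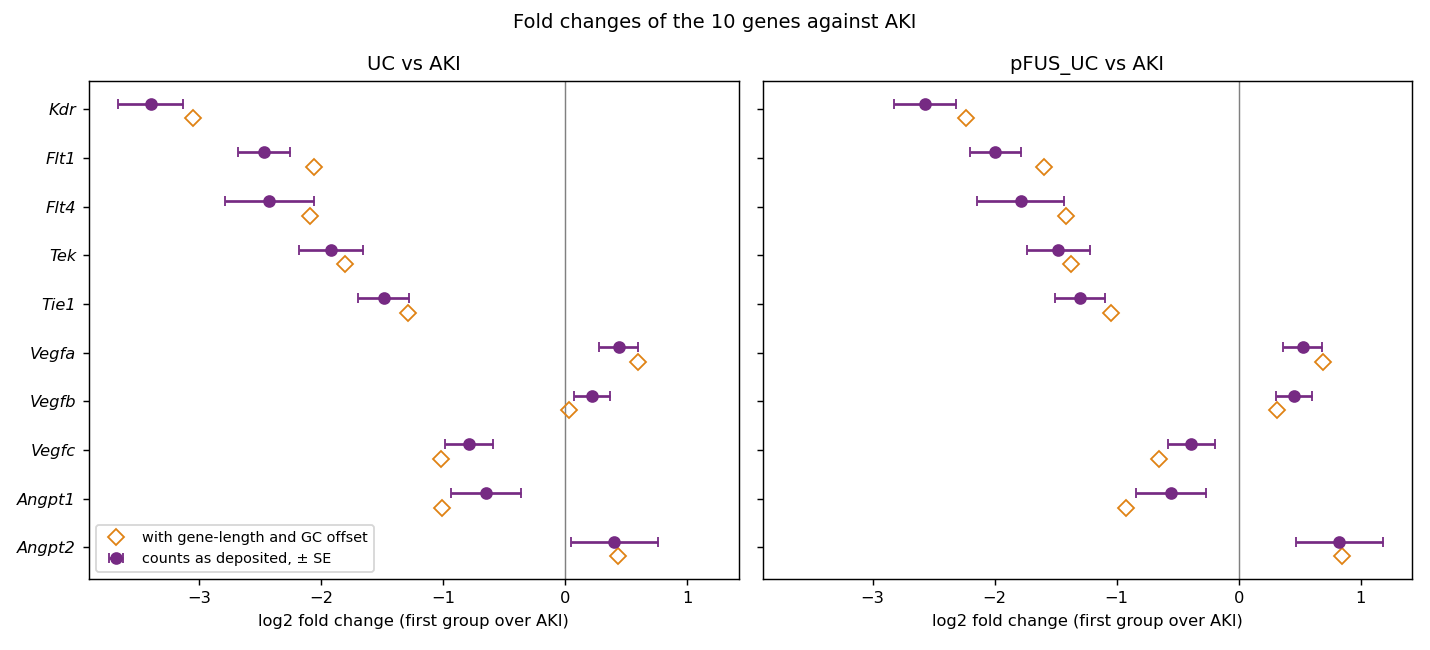
Log2 fold changes of the 10 genes in UC against AKI (left) and pFUS_UC against AKI (right); filled points are edgeR values with their SE, open diamonds the values with a per-library offset for gene length and GC content. The receptors lie between -3.40 and -1.30 and stay below 0 with the offset (-3.05 to -1.05), and the ligands lie between -0.78 and 0.82 as deposited and between -1.02 (Vegfc) and 0.85 (Angpt2) with the offset.

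A ratio of counts within a library does not depend on how the library was scaled. The log2 ratio of Angpt2 to Angpt1 counts was 1.76, 2.42, 2.38 and 2.13 in pFUS_UC, 0.30, 2.04, 2.72 and 1.87 in UC, and 0.45, 0.95, 1.07 and 0.70 in AKI. All pFUS_UC samples lay above all AKI samples, by 1.38 on average, while UC replicate 1 had the lowest ratio of all 12. The log2 ratio of Vegfa to Kdr was 3.98 ± 0.41 in pFUS_UC, 4.76 ± 0.64 in UC and 0.88 ± 0.49 in AKI (SD, n = 4 each), so the excess of ligand over receptor counts was 3.10 higher in pFUS_UC and 3.88 higher in UC than in AKI on the log2 scale, without overlap. These ratios were described and not tested.

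**Figure D3:**
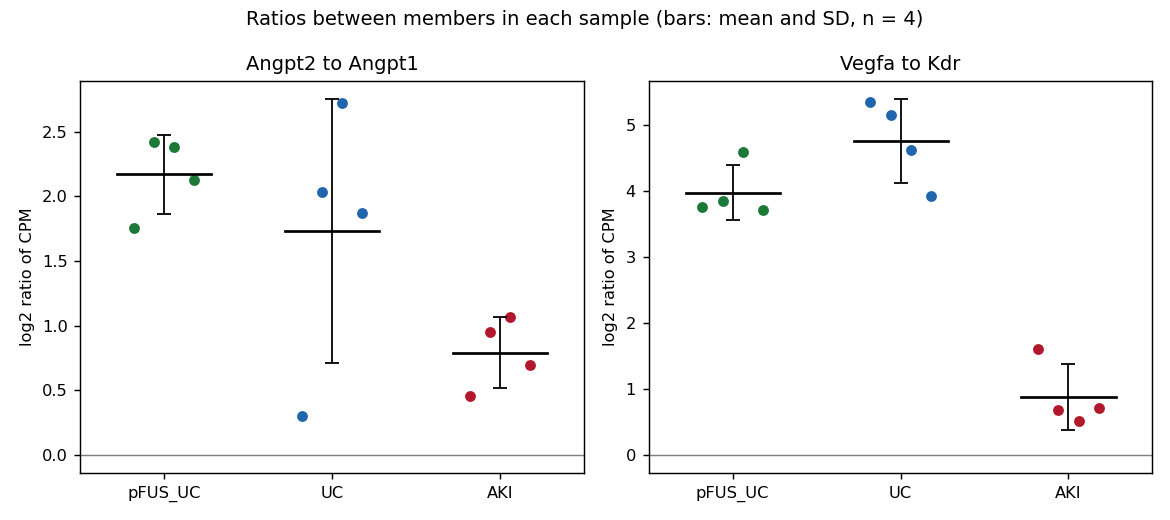
Log2 ratio of Angpt2 to Angpt1 CPM (left) and of Vegfa to Kdr CPM (right) in every sample of pFUS_UC, UC and AKI; lines are means and bars SDs of 4 samples. The Vegfa to Kdr ratio separates both MSC groups from AKI (means 3.98, 4.76 and 0.88), and the Angpt2 to Angpt1 ratio spreads widely in UC (0.30 to 2.72).

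Endothelial markers fell along with the receptors. Of 20 endothelial markers that are none of the 10 genes, 11 were lower and 2 higher in pFUS_UC than in AKI, and 16 were lower and 1 higher in UC than in AKI (edgeR), with median log2 fold changes of -0.75 and -0.95 in these comparisons. Among all tested genes, 22.1% were lower and 21.9% higher in pFUS_UC, and 24.3% lower and 24.1% higher in UC. Without UC replicates 1 and 2 together, 10 and not 17 of the 20 were called in UC. Ehd3, an endocytic protein of glomerular endothelium, was 4.35-fold lower in pFUS_UC and 5.52-fold lower in UC, and the transcription factor Sox18 4.06-fold and 5.85-fold lower (edgeR adjusted p from 3.48e-05 to 0.000116 for both genes). Their summed level was 522 to 715 CPM in pFUS_UC, 308 to 711 CPM in UC and 924 to 1654 CPM in AKI. The markers did not move as 1 block: the transcription factor Sox17 was higher in both MSC groups (1.63-fold in pFUS_UC and 1.76-fold in UC, edgeR adjusted p = 0.00235 and 0.000744), and the tight junction gene Cldn5 had 33.99 ± 7.96 CPM in pFUS_UC, 28.2 ± 5.66 CPM in UC and 29.97 ± 4.996 CPM in AKI (edgeR adjusted p = 0.461 and 0.723 against AKI).

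Set against these markers, Kdr, Flt1 and Flt4 had lower ratios in every MSC sample than in any AKI sample. Each receptor was divided by the summed CPM of the 20 markers of the same library. Plvap and Eng weighed most in that sum, at 369 and 334 CPM on average in AKI, where the sum averaged 1319 CPM. Kdr, Flt1 and Flt4 (9030, 13504 and 8232 bases) are longer than the longest of the 20 markers (7290 bases). For Kdr the log2 ratio was -5.17, -5.38, -5.62 and -5.40 in pFUS_UC, -5.78, -5.57, -6.31 and -5.74 in UC, and -3.82, -3.94, -3.86 and -3.91 in AKI. The AKI values lay within 0.13 of each other and far above all MSC values. The difference from AKI was -1.51 in pFUS_UC and -1.97 in UC for Kdr, -0.93 and -1.01 for Flt1, and -0.72 and -1.12 for Flt4, without overlap, and each had the smallest p that a 2-sided exact permutation test of 4 against 4 samples can give (0.0286). Adjusted over the 15 ratio tests that p became 0.0536, above the threshold, and with the mean of log2 marker levels in place of their sum it became 0.0429 (exact permutation tests). For Kdr, Flt1 and Flt4 the unadjusted p was the same smallest value with both measures. The adjusted value changed only because Tek in pFUS_UC and Tie1 in UC also reached that smallest p, so it is no stronger evidence for Kdr, Flt1 and Flt4. For Tek the difference was -0.44 in pFUS_UC, with overlap (exact permutation p = 0.0571), and -0.51 in UC (p = 0.0286). For Tie1 the difference was -0.24 in pFUS_UC (exact permutation p = 0.0286, adjusted p = 0.0536) and -0.02 in UC (exact permutation p = 0.8), and it depended on the marker measure. It was 0.07 in pFUS_UC and 0.25 in UC with Pecam1 and Cdh5 alone, and -0.53 in pFUS_UC and -0.36 in UC with the mean of log2 marker levels (exact permutation adjusted p = 0.0429 each). That mean also brought Tek past the threshold, at -0.73 in pFUS_UC and -0.85 in UC (exact permutation adjusted p = 0.0429 each).

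**Figure D4:**
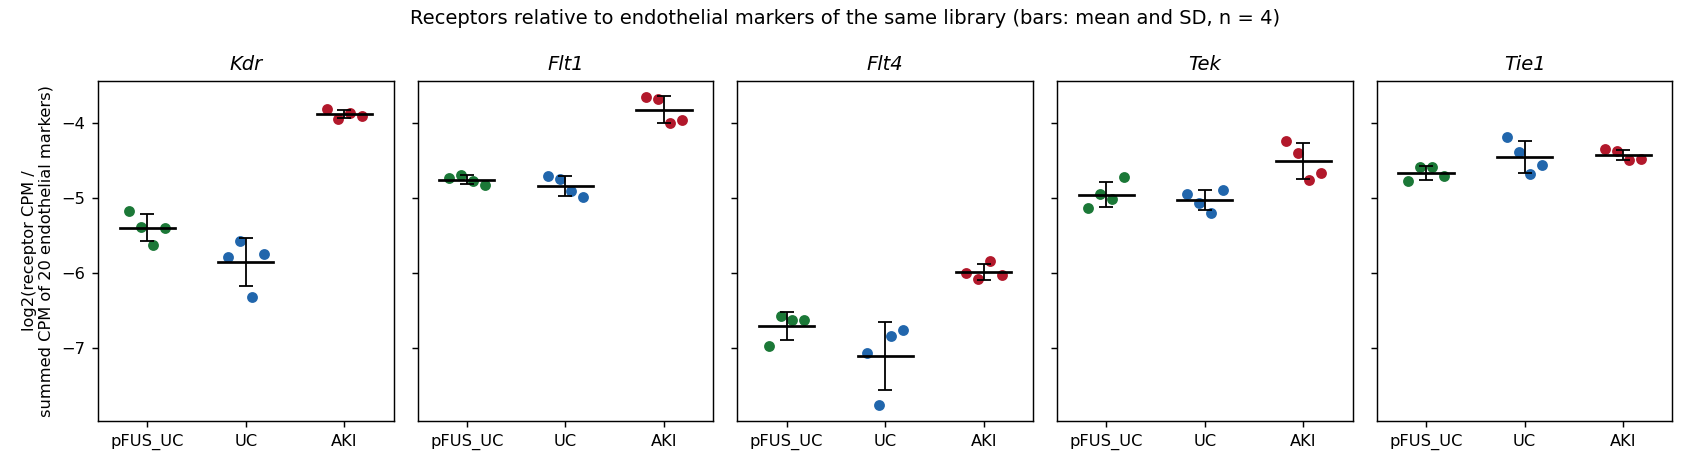
Log2 ratio of each receptor's CPM to the summed CPM of 20 endothelial markers in the same library, for every sample of pFUS_UC, UC and AKI; lines are means and bars SDs of 4 samples. Kdr, Flt1 and Flt4 lie below AKI in every MSC sample, by -1.97 to -0.72 on average. Tie1 in UC (-4.67 to -4.18) spreads to both sides of the AKI values (-4.49 to -4.35).

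Gene length moved with this result. The receptor genes are listed with lengths from 4712 bases (Tek) to 13504 bases (Flt1). Of 7869 tested protein-coding genes of at least 4000 bases, a limit chosen after the values were seen, 33.2% were called lower and 13.6% higher in pFUS_UC than in AKI, and 35.9% lower and 15.3% higher in UC than in AKI. Of 6303 shorter ones, 15.7% were lower and 25.7% higher in pFUS_UC, and 18% lower and 28.1% higher in UC. With a per-library offset for gene length and GC content, the log2 fold changes in pFUS_UC against AKI were -2.24 for Kdr, -1.60 for Flt1, -1.41 for Flt4, -1.37 for Tek and -1.05 for Tie1. In UC against AKI they were -3.05, -2.06, -2.09, -1.80 and -1.29 for the same genes, and all 10 values kept their edgeR call. Over the 20 endothelial markers, of 1416 to 7290 bases, the rank correlation of length with the log2 fold change in UC against AKI was -0.18 with the counts as deposited. It was 0.01 with the length offset and -0.11 with the length and GC offset, a description over genes that share libraries. The median log2 fold change of these markers was -0.954, -0.946 and -0.951 in the same order. The part of RNA quality in these differences was not tested.

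**Figure D5:**
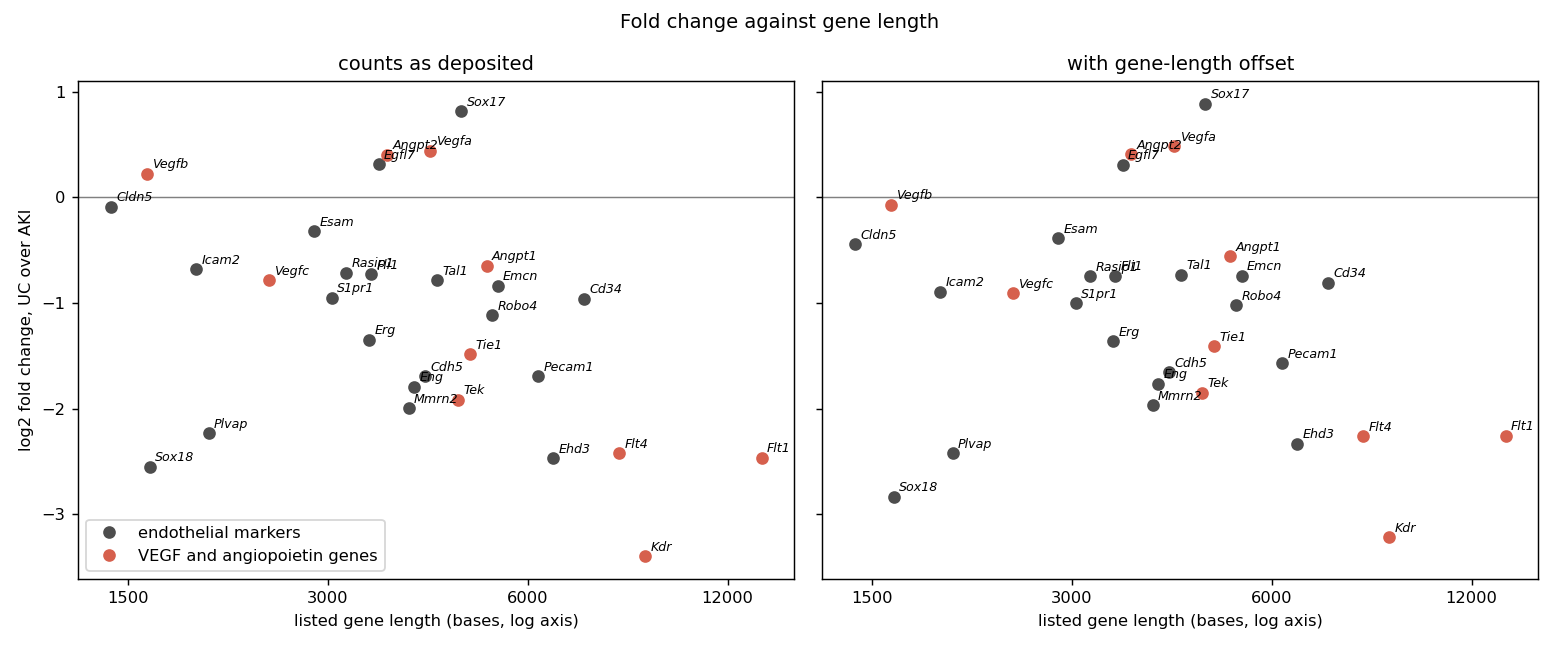
Log2 fold change of UC over AKI against listed gene length (log axis) for the 10 genes and the 20 endothelial markers, with the counts as deposited (left) and with a per-library offset for gene length (right). Kdr lies lowest in both panels (-3.40 and -3.22), and short markers are found both near 0 (Cldn5, -0.09 as deposited) and far below it (Sox18, -2.55 as deposited).

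Ultrasound added to the cells made no difference that passed the threshold for any of the 10 genes. In pFUS_UC against UC edgeR called 0% of the 16947 genes (0 genes; 1342 had an unadjusted p under 0.05), and DESeq2 called 44, none of them among the 10. The log2 fold changes of the 10 genes were all above 0, from 0.08 (Vegfa) to 0.83 (Kdr), with a median of 0.41 against 0.00 for all tested genes. The groups overlapped for all 10, whereas 3.90% of all genes had groups apart. Kdr had the smallest p: pFUS_UC had 15.1 ± 3.01 CPM and UC 8.45 ± 3.35 CPM (SD, n = 4 each), a log2 fold change of 0.83 (SE 0.25, edgeR unadjusted p = 0.00579, adjusted p = 0.591). Flt1 had a log2 fold change of 0.47 (SE 0.21, edgeR unadjusted p = 0.0399, adjusted p = 0.619).

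UC replicates 1 and 2 weighed on these differences. They had the highest mitochondrial shares (18.04 and 18.2%) and the lowest Flt1, Flt4, Tek and Tie1 levels of the 12 samples. Without both, the log2 fold change of pFUS_UC against UC was 0.57 for Kdr, 0.18 for Flt1, 0.09 for Flt4, 0.07 for Tek, -0.07 for Tie1 and -0.01 for Angpt2. Their summed endothelial markers, 308 and 374 CPM, were also the lowest of the 12, and the part of library quality in these differences was not tested. Relative to the endothelial markers, Kdr was 0.46 higher in pFUS_UC than in UC on the log2 scale (exact permutation p = 0.0571, 0.0857 adjusted over 15 tests), with overlap.

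Beyond group differences, the receptors varied together from sample to sample. With each gene centred on its group means, Pearson correlations of log2 CPM between pairs of receptors were 0.68 to 0.95 over 12 samples that share their libraries' depth and quality. Angpt2 followed the receptors (0.62 to 0.78), whereas Vegfa ran against them (-0.58 to -0.27). Among 10921 protein-coding genes with a mean of at least 5 CPM, those most like Kdr by this measure were Angptl2 (0.96), Tmem204 (0.95), Arap3 (0.94), Gucy1a1 (0.94) and Podxl (0.94). Those most like Vegfa were Slc35e2 (0.94), Zkscan3 (0.93), Ankrd24 (0.93), Ccdc141 (0.93) and Pcyox1l (0.92). Both sets are the highest of 10921 values over only 12 samples, and they were not tested against chance. Podxl, the podocyte and endothelial surface sialomucin podocalyxin, was also a member of the podocyte markers below.

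Among 8 further ligands, co-receptors and partners of the same receptors, 4 fell in pFUS_UC and 5 in UC against AKI, and none rose (edgeR). The share of all tested genes called lower was 22.1% in pFUS_UC and 24.3% in UC. Neuropilin 2 (Nrp2), a co-receptor of FLT4, was 4.41-fold lower in pFUS_UC and 5.57-fold lower in UC (edgeR adjusted p = 0.000648 and 0.000209). Neuropilin 1 (Nrp1), the co-receptor of KDR, had 59.7 ± 13.02 CPM in pFUS_UC, 70.5 ± 21.4 CPM in UC and 78.9 ± 19.9 CPM in AKI, and did not pass (edgeR adjusted p = 0.18 and 0.594). Svep1, an extracellular matrix protein that binds TIE1, was 5.77-fold lower in pFUS_UC and 7.96-fold lower in UC, and Ptprb, the endothelial phosphatase that restrains TEK, 2.47-fold and 3.53-fold lower (edgeR adjusted p from 0.000113 to 0.00227). The ligands Pgf and Angpt4 were near or below 1 CPM on average in all groups.

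Downstream of the receptors, 27 of 28 listed signalling genes were tested. In pFUS_UC against AKI 15 fell and 2 rose, and in UC against AKI 15 fell and 3 rose (edgeR), with medians of -0.46 and -0.50 on the log2 scale. All tested genes gave 22.1% lower and 21.9% higher in pFUS_UC, and 24.3% lower and 24.1% higher in UC. The GTPase Rac1 was 1.84-fold lower in pFUS_UC and 1.92-fold lower in UC (edgeR adjusted p = 0.000317 and 0.000147). Foxo1, a transcription factor held in check by TEK signalling through AKT, had 38.5 ± 4.15 CPM in pFUS_UC, 32.6 ± 2.94 CPM in UC and 60.6 ± 6.15 CPM in AKI, and fell in both (edgeR adjusted p = 0.000596 and 6.8e-05). Pxn, the focal adhesion scaffold paxillin, was 1.56-fold lower in pFUS_UC (edgeR adjusted p = 0.000572). Dok2, an adaptor that binds TEK, rose 2.94-fold in pFUS_UC and 2.51-fold in UC (edgeR adjusted p = 0.0023 and 0.00487). Most of these genes are used by many cell types and receptors, so the counts describe the list and not the activity of the receptors.

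Of 18 genes of the angiogenic response and the Notch pathway, 16 were tested. Against AKI, 9 fell in pFUS_UC and 10 in UC, and none rose (edgeR), where 22.1% and 24.3% of all tested genes were called lower. Notch1 was 4.25-fold lower in pFUS_UC and 3.62-fold lower in UC (edgeR adjusted p = 6.59e-06 and 1.34e-05). Esm1, a secreted product of VEGF-stimulated tip cells, had 6.84 ± 2.09 CPM in pFUS_UC, 2.47 ± 1.35 CPM in UC and 16.0 ± 2.31 CPM in AKI (edgeR adjusted p = 0.00695 and 6.96e-05 against AKI). Unc5b, a vascular guidance receptor, was 2.78-fold lower in pFUS_UC and 3.08-fold lower in UC, and the Notch target Heyl 2.16-fold and 2.505-fold lower (edgeR adjusted p from 0.000266 to 0.00186). The Notch ligand Jag1 did not pass in either comparison (27.9 ± 2.91, 28.5 ± 3.64 and 30.2 ± 3.56 CPM in pFUS_UC, UC and AKI).

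Among 8 genes of oxygen sensing upstream of Vegfa, 5 fell in each comparison with AKI and none rose (edgeR). Of all tested genes, 22.1% were called lower in pFUS_UC and 24.3% in UC. The genes that fell included negative regulators of HIF. Egln1, Egln3 and Hif1an had log2 fold changes of -0.47, -0.96 and -0.525 in pFUS_UC, and of -0.645, -0.93 and -0.47 in UC. Epas1 (HIF2A), the hypoxia-inducible factor of endothelial and interstitial cells, had 102 ± 8.92 CPM in pFUS_UC, 87.8 ± 11.4 CPM in UC and 303 ± 65.5 CPM in AKI, a fall of 2.98-fold in pFUS_UC and 3.45-fold in UC (edgeR adjusted p = 5.5e-05 and 2.38e-05). Arnt, the common HIF partner, was 1.66-fold lower in pFUS_UC and 1.65-fold lower in UC (edgeR adjusted p = 0.000268 and 0.000191). Hif1a had 75.2 ± 16.96 CPM in pFUS_UC, 74.3 ± 17.8 CPM in UC and 64.3 ± 10.1 CPM in AKI and did not pass.

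Podocyte markers moved in the other direction from Vegfa. Of 12 podocyte markers, 10 fell in pFUS_UC and 11 in UC against AKI (edgeR), with medians of -1.59 and -2.14, and their summed level was 532 to 676 CPM in pFUS_UC, 411 to 663 CPM in UC and 1172 to 1726 CPM in AKI. Synpo (synaptopodin) was 4.52-fold lower in pFUS_UC and 5.62-fold lower in UC, and Nphs1 (nephrin) 3.87-fold and 5.36-fold lower (edgeR adjusted p from 2.3e-05 to 9.5e-05). The log2 ratio of Vegfa to the summed podocyte markers was -1.38 ± 0.24 in pFUS_UC, -1.19 ± 0.39 in UC and -3.16 ± 0.42 in AKI (SD, n = 4 each), with both MSC groups apart from AKI. Thick limb and proximal tubule cells, which also make Vegfa, had 3 of 8 and 4 of 10 markers lower in pFUS_UC, and 3 of 8 and 5 of 10 lower in UC, with none higher (edgeR). Beside these lists, 22.1% of all tested genes were called lower in pFUS_UC and 24.3% in UC. The thick limb markers summed to 2426 to 4015 CPM in pFUS_UC, 1413 to 3851 CPM in UC and 4995 to 7551 CPM in AKI, and the proximal tubule markers to 15012 to 18837, 9562 to 20166 and 13063 to 20846 CPM in pFUS_UC, UC and AKI. The part of these cell types in the Vegfa difference was not tested.

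Of 14 mural and mesangial markers, which mark the cells that make Angpt1, 7 fell and 2 rose in pFUS_UC, and 10 fell and 2 rose in UC against AKI (edgeR). For these and the lymphatic markers below, the share of all tested genes was 22.1% lower and 21.9% higher in pFUS_UC. In UC it was 24.3% lower and 24.1% higher. Pdgfrb, the PDGF receptor of pericytes, was 3.62-fold lower in pFUS_UC and 4.16-fold lower in UC, and Notch3 3.52-fold and 2.90-fold lower (edgeR adjusted p from 6.21e-05 to 0.000512). The 2 that rose in each comparison were Rgs5 and Gata3. Rgs5 was 1.415-fold higher in pFUS_UC and 1.32-fold in UC, and Gata3 1.43-fold and 1.47-fold (edgeR adjusted p from 0.0102 to 0.049). Acta2 and Myh11 did not pass in either comparison (edgeR adjusted p from 0.187 to 0.924). The log2 ratio of Angpt1 to the summed markers was -5.84 ± 0.64 in pFUS_UC, -5.59 ± 0.37 in UC and -5.77 ± 0.67 in AKI, with overlap. Of 6 lymphatic markers, 2 fell in pFUS_UC and 3 in UC against AKI (edgeR). They summed to 24.5 to 37.9 CPM in pFUS_UC, 8.10 to 36.04 CPM in UC and 27.98 to 47.1 CPM in AKI. Lyve1 was at 0.22 ± 0.13, 0.10 ± 0.08 and 1.25 ± 0.50 CPM in pFUS_UC, UC and AKI, where 3 counts correspond to 0.13 to 0.19 CPM. Mmrn1, also near that limit, fell in both comparisons and had 0.34 ± 0.22, 0.10 ± 0.04 and 0.81 ± 0.24 CPM in these groups. Ccl21a had 7.33 ± 2.92, 1.26 ± 1.08 and 7.87 ± 3.31 CPM. It was 6.12-fold lower in UC than in AKI (edgeR adjusted p = 0.000822) and did not pass in pFUS_UC (edgeR adjusted p = 0.857). Prox1 had 12.6 ± 2.52, 10.9 ± 7.57 and 15.8 ± 3.75 CPM in the same groups and did not pass (edgeR adjusted p = 0.546 and 0.311 against AKI). Nor did Pdpn and Reln pass in either comparison. The part of lymphatic vessels in the fall of Flt4 was not tested.

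Other cells were checked by their markers. Against AKI, 22.1% of all tested genes were called lower and 21.9% higher in pFUS_UC, and 24.3% lower and 24.1% higher in UC. Of 9 adipocyte markers 1 rose in pFUS_UC and 5 fell in UC against AKI, with sums of 72.9 to 269, 19.5 to 80.05 and 66.4 to 187 CPM in pFUS_UC, UC and AKI. Of 10 macrophage markers 1 fell in pFUS_UC and 4 in UC, with sums of 155 to 185, 74.4 to 190 and 106 to 198 CPM. Of 4 tested erythrocyte markers 2 were called higher in pFUS_UC, 0 when pFUS_UC replicate 4 was left out, and none passed in UC, with sums of 37.97 to 641, 30.4 to 62.98 and 33.004 to 97.4 CPM (edgeR for all counts). In none of the 13 lists did edgeR call a gene in pFUS_UC against UC. The adipocyte markers had a median log2 fold change of 2.19 in that comparison, with groups apart for 4 of 9 (3.90% of all genes), among them Fabp4, a fatty acid carrier, at 72.7 ± 16.9 CPM in pFUS_UC and 23.4 ± 14.1 CPM in UC (SD, n = 4 each, edgeR adjusted p = 0.472). The part of adipocyte markers in the differences of the 10 genes between pFUS_UC and UC was not tested.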

How the data were processed

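Total RNA was extracted from kidney and sequenced. The deposited tables hold raw read counts per gene and FPKM values made by the authors; the submitters' processing notes name HTSeq, DESeq2 and GRCm39 (mm39) without versions, and for the aligner and strandedness the sources used here give nothing. Each deposited FPKM value above 1 equalled count over listed gene length over 1 scaled total per library, and lower values were not checked. Reads of overlapping or antisense genes cannot be told apart.

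Counts were tested with edgeR 4.0.16 (R 4.3.3): filterByExpr (minimum count 10, minimum total 15), TMM, 1 quasi-likelihood fit of all 12 samples (9 residual degrees of freedom), Benjamini-Hochberg adjustment at 0.05. SE is the absolute log2 fold change over the square root of F. The fit was tested on simulated data. Receptor ratios were compared by 2-sided exact permutation tests. Alternatives were DESeq2 1.42.0, its size factors, other filters, no mitochondrial genes, a replicate block, limma 3.58.1 on log2(FPKM + 1) and log2(FPKM + 0.1), offsets for gene length and GC (98.1% of tested genes had a GC value, matched by identifier), and samples left out. 

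The 10 genes, the 13 lists and the libraries left out were chosen with earlier results of these data known. Named genes are the 10 genes, up to 3 called genes with the smallest p of a list in each comparison, and the 5 genes most like Kdr and Vegfa. Nrp1, Jag1, Hif1a, Egln3, Cldn5, Sox17, Dok2, Fabp4, Pgf, Angpt4, Lyve1, Prox1, Pdpn, Reln, Rgs5, Gata3, Acta2 and Myh11 were named in addition after their values were seen where the rule did not give them. A gene that the rule names is not reported here.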

Additional observations from a re-analysis of the deposited data

Results flagged for a closer look

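Of 96 groups of 4 values examined, 5 had 1 library standing apart by Dixon's criterion, and chance gives about 1 in 20. Vegfb stood at 133 CPM in UC replicate 4, above the other UC samples. The log2 ratio of Flt4 to the endothelial markers was -6.98 in pFUS_UC replicate 1, below its group. The log2 ratio of Vegfa to Kdr was 4.60 in pFUS_UC replicate 3, above its group, and that of Vegfa to the podocyte markers was -2.54 in AKI replicate 1, above the other AKI samples. The summed erythrocyte markers reached 641 CPM in pFUS_UC replicate 4.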

How the results depend on the processing

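The calls of all 5 receptors against AKI, and of Vegfc in UC, held under every alternative that was run for them. Of 10 genes, 5 to 8 were called in pFUS_UC against AKI, 6 to 8 in UC against AKI and 0 in pFUS_UC against UC over all alternatives. Over all genes, 5414 were called in UC against AKI without UC replicates 1 and 2 together, and in pFUS_UC against UC 44 by DESeq2, 13 without a filter, 2 with a replicate block, and 0 to 1 with 1 sample left out. Replicate numbers did not pair the samples (correlations of deviations -0.17 to 0.15, with 2 of 12 over 0.1), and the replicate block left 7 of 10 genes called in both comparisons with AKI.

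Some values changed sign, and the cause was not tested. They were Vegfb in UC against AKI with the length offset (-0.07), and in pFUS_UC against UC Angpt1 (-0.016 to 0.30) and Vegfa (-0.015 to 0.22) with 1 sample left out, and Tie1 (-0.073) and Angpt2 (-0.007) without UC replicates 1 and 2. For Tie1 relative to endothelial markers, UC against AKI gave 0.25 with Pecam1 and Cdh5 alone, 0.10 with the length offset, 0.15 with the length and GC offset and -0.11 to 0.053 with 1 sample left out, and pFUS_UC against AKI gave 0.067 with Pecam1 and Cdh5 alone. For Tek, pFUS_UC against UC gave -0.005 to 0.13 with 1 sample left out, the lowest without pFUS_UC replicate 4. With mean log2 markers, 10 receptor ratios against AKI passed (exact permutation adjusted p = 0.0429), from -2.31 (Kdr) to -0.36 (Tie1) in UC and from -1.80 to -0.53 in pFUS_UC. Each had the smallest unadjusted p the test can give (0.0286), so passing depended on how many of the 15 tests reached it. Over all samples, counts of Vegfc, Angpt1 and Flt4 were the lowest of the 10 genes and limit the precision of their values.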
